A study of Mus musculus with 8 samples.

Results

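Type A receptors for gamma-aminobutyric acid (GABA-A receptors) are chloride channels that carry most fast inhibition in the forebrain. Their RNA was examined through 7 subunit genes, Gabra2, Gabra3, Gabra4, Gabra5, Gabrb1, Gabrb2 and Gabrd, matched by symbol among the 39017 genes of the table. Each was found, and each passed the filter on low counts, among 17654 genes tested.

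The RNA came from translating ribosome affinity purification, in which tagged ribosomes are captured and the RNA bound to them is sequenced. All mice carried CCK cre and the L10-EGFP ribosome tag, so the captured ribosomes come from cells in which this Cre, driven by the gene of the neuropeptide cholecystokinin, had acted. SMARCA3 is a chromatin remodelling protein of the SWI/SNF family. Mice behind the 5 conditional knockout (cKO) libraries were also SMARCA3 fl/fl, and those behind the 3 wild-type (WT) libraries were littermates without both floxed copies. SMARCA3 is encoded by Hltf. Each library pooled 4 hippocampi, and ages, sexes and the type of Cre allele are not given in the sources used here. Nothing states that the pools are separate sets of mice, so the p-values measure the spread between these libraries, which may be technical.

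A GABA-A receptor is a ring of 5 subunits around a chloride pore, usually alpha and beta subunits with a gamma or a delta subunit. The alpha subunit, together with the gamma or delta subunit, helps to set where the receptor sits and which drugs it binds. Receptors with alpha2 are found at synapses and on the axon initial segment, those with alpha5 lie largely outside synapses on hippocampal pyramidal cells, and those with alpha4 and delta carry tonic inhibition in dentate granule cells.

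Total counts ran from 31760155 to 61823651 per library. Levels are given as CPM, counts scaled to a common library total. In principal components of log2 CPM, the first component (31.1% of the variance) set the library labelled cKO 5 apart, and the second (22.3%) set cKO 4 apart. Hltf was at 13.7, 8.39 and 9.87 CPM in WT and at 5.10, 4.49, 4.21 and 2.83 CPM in cKO 1 to 4. The library labelled cKO 5 had 11.4 CPM, which goes against its label, so each member's difference is also given without it and over the 6 libraries that leave out both libraries that stood apart. The sources do not state which exons were floxed, and a count per gene does not show whether they were lost. Cck itself was at 415 to 631 CPM in WT and 571 to 837 CPM in cKO. Pyramidal markers had the highest sum of the cell type lists. The 12 pyramidal markers summed to 8348 to 8969.6 CPM in WT and 9040.4 to 13442 CPM in cKO, 15 interneuron markers to 400.1 to 462 and 316 to 482 CPM, 10 astrocyte markers to 361 to 497 and 342 to 554 CPM, and 10 microglial markers to 10.6 to 17.7 and 7.86 to 14.7 CPM. The glutamate transporter gene Slc1a2 alone averaged 347 of the 415 CPM of the astrocyte sum in WT. The microglial gene C1qa was at 0 in 7 of the 8 libraries.

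The 4 alpha subunits account for most of the RNA of the members, so the bases upstream of their starts are shown. The sequences are from RefSeq (GRCm38.p6, the assembly also called mm10) and end at the base before the start. Gabra4 is the exception and leaves out the 55 bases nearest to its start, which are annotated as untranslated transcribed sequence. The bases shown for Gabra4 still lie within its neighbour Gabrb1, which runs on the opposite strand. The Gabra5 window also overlaps another gene on the opposite strand. Capitals mark GGGCGG (the GC box), TATAAA and CCAAT, on either strand, and no capitals overlap. TGACGTCA, the site bound by cyclic AMP response factors, was also searched. The windows are chr5:71095850-71096099, chrX:72656920-72657169, chr5:71658364-71658558 and chr7:57510060-57510309, all on the minus strand.
Gabra2: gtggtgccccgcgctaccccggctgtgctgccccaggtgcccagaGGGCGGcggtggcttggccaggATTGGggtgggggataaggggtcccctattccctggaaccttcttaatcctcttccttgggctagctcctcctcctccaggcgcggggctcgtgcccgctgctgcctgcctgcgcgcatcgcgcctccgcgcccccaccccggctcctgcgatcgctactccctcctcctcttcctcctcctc
Gabra3: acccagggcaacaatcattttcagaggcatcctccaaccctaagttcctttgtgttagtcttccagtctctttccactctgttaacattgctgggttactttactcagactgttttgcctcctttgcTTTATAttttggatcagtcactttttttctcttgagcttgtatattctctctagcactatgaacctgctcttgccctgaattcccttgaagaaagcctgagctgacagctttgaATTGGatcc
Gabra4: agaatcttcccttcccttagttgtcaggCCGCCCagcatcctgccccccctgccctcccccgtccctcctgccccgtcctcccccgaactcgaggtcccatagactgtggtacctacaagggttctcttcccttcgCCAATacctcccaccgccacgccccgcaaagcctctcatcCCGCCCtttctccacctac
Gabra5: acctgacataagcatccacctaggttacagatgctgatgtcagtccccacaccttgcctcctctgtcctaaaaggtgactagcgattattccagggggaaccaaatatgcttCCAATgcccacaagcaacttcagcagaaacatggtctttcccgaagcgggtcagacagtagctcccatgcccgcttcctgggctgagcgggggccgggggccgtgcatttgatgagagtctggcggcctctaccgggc

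The upstream windows differed most between Gabra2 and Gabra3. The Gabra2 window was 70.0% G and C with 18 CpG pairs, 1 GGGCGG and 1 CCAAT. The Gabra3 window, from the outer of its 2 listed starts, was 42.4% G and C with 0 CpG pairs, 1 TATAAA and 1 CCAAT. The Gabra5 window was 56.4% G and C with 9 CpG pairs and 1 CCAAT, and the median over all 32851 listed windows of 250 bases was 52.4%. GGGCGG occurs in 32.7% of those windows, TATAAA in 12.4%, CCAAT in 33.8% and TGACGTCA in 1.55%. The 195 bases of Gabra4 held 2 GGGCGG and 1 CCAAT, which occur in 23.8% and 27.6% of all windows trimmed to the same length. None of the 4 windows held TGACGTCA. A match is a string of letters and does not show that a factor binds there.

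The genes lie in several clusters. Gabra2 (ENSMUSG00000000560, mm10 chromosome 5, 70957597 to 71095849), Gabra4 (ENSMUSG00000029211, chromosome 5, 71569749 to 71658308) and Gabrb1 (ENSMUSG00000029212, chromosome 5, 71658113 to 72149037) neighbour each other. Gabra4 and Gabrb1 run in opposite directions from overlapping starts, and 46 bases of their exons overlap. Gabra5 (ENSMUSG00000055078) lies at 57407672 to 57510059 on chromosome 7, Gabrb2 (ENSMUSG00000007653) at 42419757 to 42629028 on chromosome 11, Gabra3 (ENSMUSG00000031343) at 72432681 to 72656848 on chromosome X and Gabrd (ENSMUSG00000029054) at 155384980 to 155398112 on chromosome 4. Of the exon bases of Gabra5, 148 (4.98%) overlap the antisense gene Gm9962, which had 2725 to 5420 counts per library, and reads there cannot be told apart without strand.

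Gabra5 was by far the most abundant of the 7 RNAs. Per kilobase of exon it averaged 276 ± 8.52 CPM over the 3 WT libraries and 266 ± 15.9 CPM over the 5 cKO libraries (SD in each case). It made up 79.7 ± 0.415% of the summed per-kilobase level of the 7 genes in WT and 78.6 ± 2.11% in cKO. These shares describe the 7 genes alone, since RNA of other subunits is present too.

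Behind Gabra5 came Gabra2, Gabrb2 and Gabra4, whose mean levels over the 8 libraries were 23.3, 17.7 and 17.6 CPM per kilobase. The ranges of these neighbours overlapped, and Gabra2 exceeded Gabrb2 in 6 of 8 libraries and Gabrb2 exceeded Gabra4 in 4 of 8. Gabra3 followed at 9.29, Gabrb1 at 2.80 and Gabrd at 0.963 CPM per kilobase, each below the gene before it in all 8 libraries. The order of the lower genes depends on the length used. Gabrb1 has a long untranslated end, so that its exons sum to 13838 bases and its coding sequence to 1422. Per kilobase of coding sequence, Gabrb1 (27.3 CPM) stood above Gabra3 (22.8 CPM) in 7 of 8 libraries, and the WT share of Gabra5 was 65.5%.

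**Figure D1:**
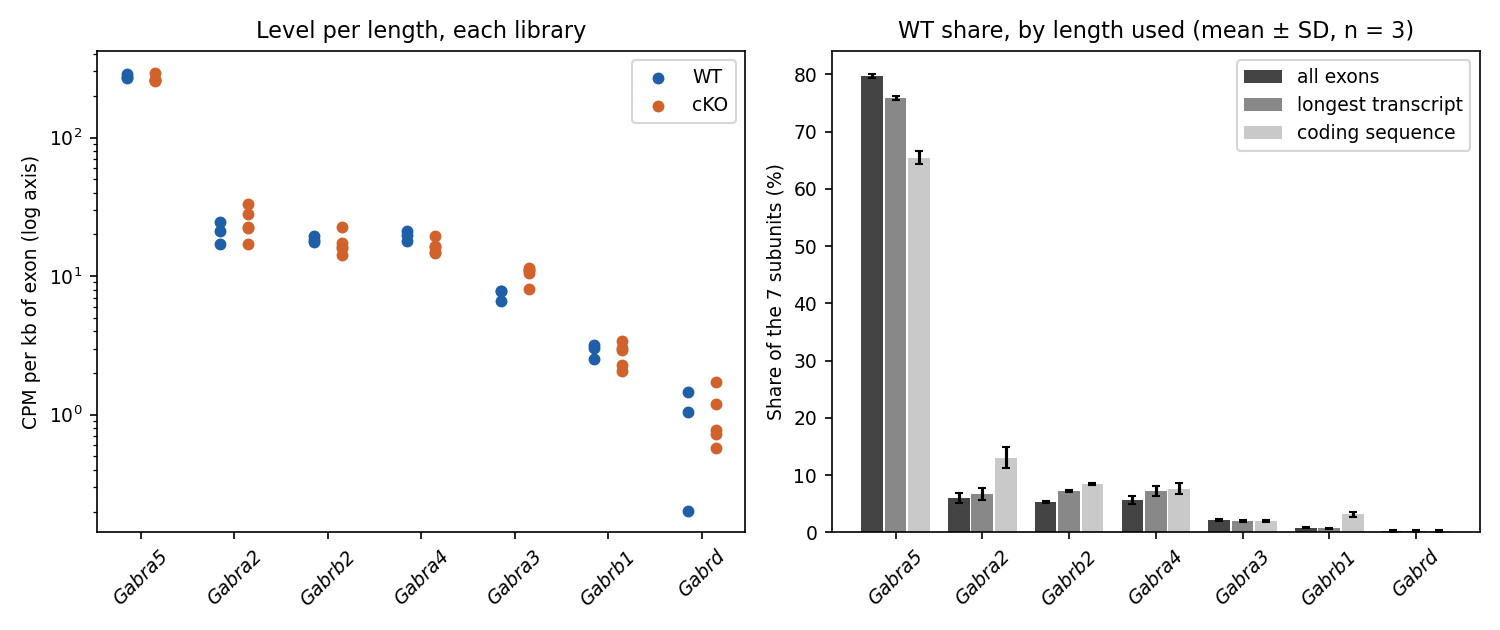
Left, level of each subunit per kilobase of exon (CPM per kb, log axis) with 1 point per library, WT in blue and cKO in orange; right, mean share of the 7-gene sum in WT (percent, bars from 0, error bars SD, n = 3) for 3 definitions of gene length. Gabra5 stands above the others under each definition, at 79.7% with all exons and 65.5% with coding sequence.

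The comparison of cKO with WT asks whether loss of SMARCA3 from CCK cells goes with a different amount of each subunit RNA on the tagged ribosomes. No member was called. By edgeR at an adjusted p under 0.05, 0 of the 7 members differed, and 0 of all 17654 genes tested did (0%). At an unadjusted p under 0.05 there was 1 member, Gabra3, which is 1 of 1540 such genes (8.72%), with 5.02% of all genes higher and 3.70% lower. Of the 11362 genes to which DESeq2 gave an adjusted p, it called 77 higher and 48 lower (1.10%), of which 0 were members. Gabrd had no adjusted p there, so this holds for the other 6 members. The members' log2 fold changes ran from -0.26 to 0.49 with a median of -0.05, against a median of 0.02 over all genes tested. In such pools, fewer cells of a type and less RNA per cell cannot be told apart.

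Gabra3, whose alpha3 receptors are best known from monoamine neurons, from the thalamic reticular nucleus and from some interneurons, was the member with the largest difference. It was at 26.1, 30.5 and 30.8 CPM in WT 1, 2 and 3. In cKO 1 to 4 it was at 43.2, 43.3, 31.5 and 41.5 CPM, and in the library labelled cKO 5 at 44.8 CPM. All 5 cKO libraries lay above all 3 WT libraries, though cKO 3 only just. Gabra3 was 1 of 7 members whose groups did not overlap, against 7.19% of all genes tested, 3.38% with cKO higher and 3.82% with cKO lower.

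Gabra3 averaged 29.1 ± 2.66 CPM over the 3 WT libraries and 40.8 ± 5.35 CPM over the 5 cKO libraries (SD in each case), a 1.40-fold ratio. For Gabra3 edgeR gave a log2 fold change of 0.49 (SE 0.15; unadjusted p of 0.00643, adjusted p of 0.499), so the difference did not pass. DESeq2 gave an adjusted p of 0.0783 for the same contrast. The log2 fold change was 0.45 without the library labelled cKO 5 and 0.43 over the 6 left when cKO 4 was dropped too. The sums of oligodendrocyte markers did not overlap between the groups either. The 10 genes summed to 72.5 to 77.7 CPM in WT and 84.6 to 109.99 CPM in cKO, 3 of them were higher at an unadjusted edgeR p under 0.05, and the defining genes Mog and Mag stayed under 1 CPM in all 8 libraries. The 8 markers of their precursors summed to 7.32 to 8.27 and 10.6 to 13.8 CPM. With the mean of the glial and vessel markers as a covariate, the Gabra3 value was 0.51 (edgeR, adjusted p = 0.110). That covariate averages the astrocyte, oligodendrocyte, precursor, microglial and vessel lists, so it does not single out oligodendrocytes. The summed pyramidal markers given above did not overlap between the groups, and 3 of 12 were higher at an unadjusted edgeR p under 0.05. Camk2a made up most of that sum, averaging 6076 of 8612 CPM in WT and 7567 of 10464 CPM in cKO. Apart from these 3 genes, Camk2a among them, each pyramidal marker overlapped between the groups. The part of oligodendrocytes or of the pyramidal markers in the Gabra3 difference was not tested.

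Gabra4, the alpha subunit that pairs with delta in granule cells, pointed the other way. Its levels were 120.5, 109 and 129 CPM in WT and 119, 98.5, 91.1, 101 and 89.1 CPM in cKO. Of the cKO libraries, 4 lay below all WT libraries and cKO 1 lay among them, so the groups overlapped. By edgeR the log2 fold change of Gabra4 was -0.26 (SE 0.12; unadjusted p of 0.0509, adjusted p of 0.574). It was -0.22 both without the library labelled cKO 5 and over the 6 libraries.

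Gabra2, the alpha subunit of many synapses on pyramidal cells, varied more among libraries. The WT libraries had 161, 189 and 131 CPM, and the cKO libraries 255, 216, 171, 129.6 and 173 CPM. The highest library was cKO 1 and the lowest cKO 4, so the cKO libraries span the whole WT range. For Gabra2 edgeR gave 0.24 on the log2 scale (SE 0.20; adjusted p = 0.781). The value was 0.41 (adjusted p = 0.465) over the 6 libraries, 0.26 without the library labelled cKO 5, 0.10 without cKO 1 and 0.08 with the glial and vessel covariate (adjusted p = 0.855).

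Gabra5, the most abundant member, was also the steadiest. The 3 WT libraries had 804, 849.7 and 808 CPM, and the 5 cKO libraries 772, 770.2, 769, 875 and 766 CPM. Only cKO 4 lay above the WT range, and the other 4 cKO libraries lay just below it. The coefficient of variation was 3.09% in WT and 5.98% in cKO. By edgeR the log2 fold change of Gabra5 was -0.05 (SE 0.08; adjusted p = 0.889). It was -0.05 without the library labelled cKO 5, -0.10 over the 6 libraries and 0.02 with a correction for GC content and transcript length.

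**Figure D2:**
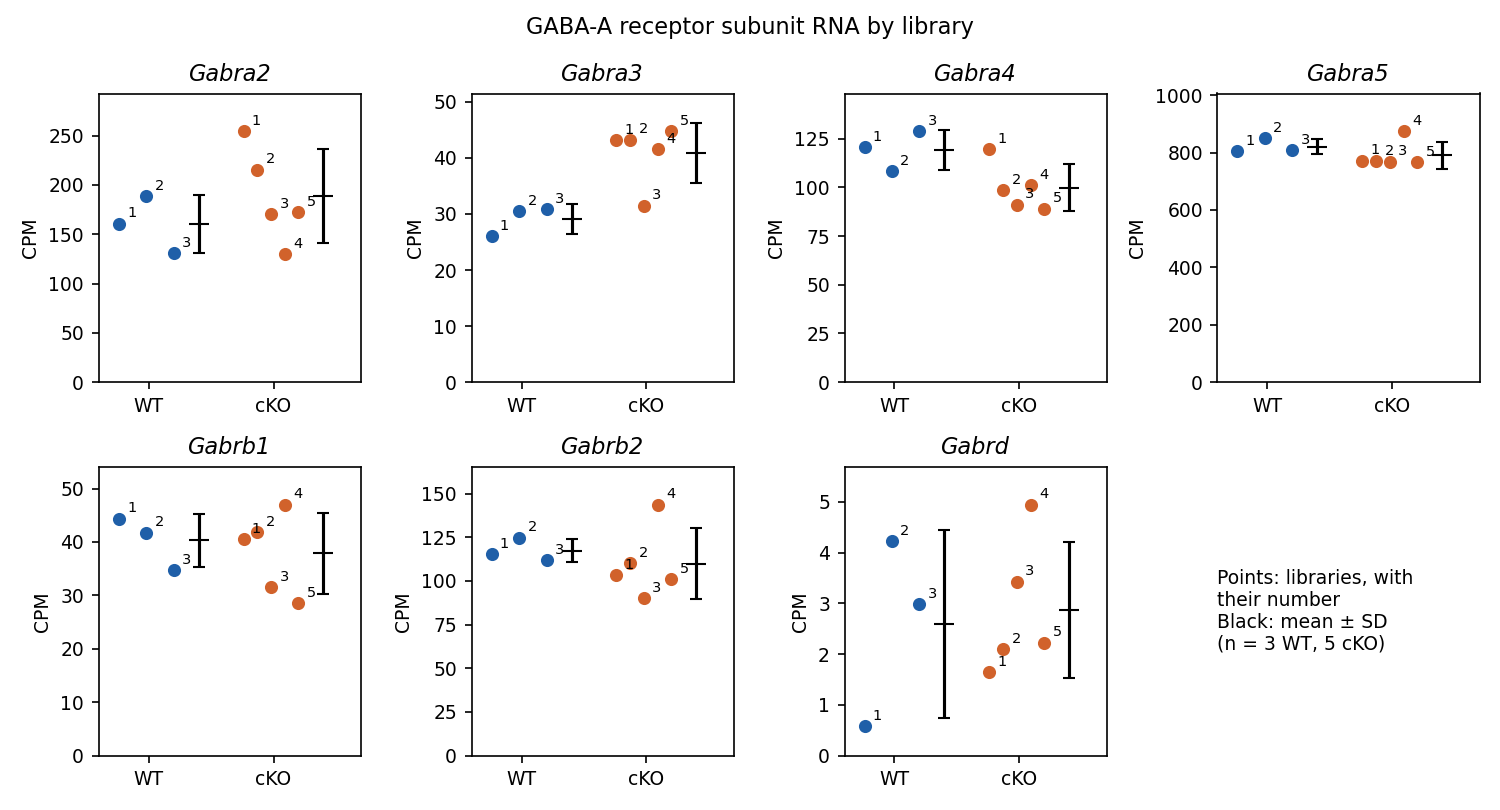
CPM of each subunit gene (vertical axes, from 0, separate scales) in the 3 WT (blue) and 5 cKO (orange) libraries, numbered by library, with mean ± SD in black. Gabra3 is the only gene of the 7 whose groups do not overlap, and Gabrd spans 0.585 to 4.95 CPM.

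The beta subunits, which form the GABA site together with alpha and carry contacts for anchoring and trafficking proteins, overlapped between the groups. Gabrb2 was at 115, 125 and 112 CPM in WT and at 103, 110.4, 90.1, 144 and 101 CPM in cKO. All cKO libraries except cKO 4 lay below the WT range. On the log2 scale Gabrb2 differed by -0.10 (SE 0.14; edgeR, adjusted p = 0.890), by -0.07 without the library labelled cKO 5, and by -0.22 over the 6 libraries. Gabrb1 was at 44.4, 41.8 and 34.7 CPM in WT and at 40.5, 41.8, 31.6, 47.0 and 28.6 CPM in cKO, with the groups interleaved. On the log2 scale Gabrb1 differed by -0.09 (SE 0.17; edgeR, adjusted p = 0.928). Without the library labelled cKO 5 the difference was -0.005, without WT 3 it was -0.18, and over the 6 libraries it was -0.09.

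Gabrd, which encodes the delta subunit of neurosteroid-sensitive receptors outside synapses, was the least abundant member. It had 22, 212 and 145 counts in WT and 86, 131, 110, 229 and 82 counts in cKO. These are 0.585, 4.22 and 2.99 CPM in WT and 1.65, 2.09, 3.43, 4.95 and 2.23 CPM in cKO. WT 1 was the lowest and cKO 4 the highest library, 8.45-fold apart, so WT holds nearly the whole range. By edgeR the log2 fold change of Gabrd was 0.14 (SE 0.57; adjusted p = 0.970). It was -0.33 without WT 1, -0.15 without cKO 4, 0.67 without WT 2, 0.21 without the library labelled cKO 5 and -0.14 over the 6 libraries, so no direction holds for this gene.

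**Figure D3:**
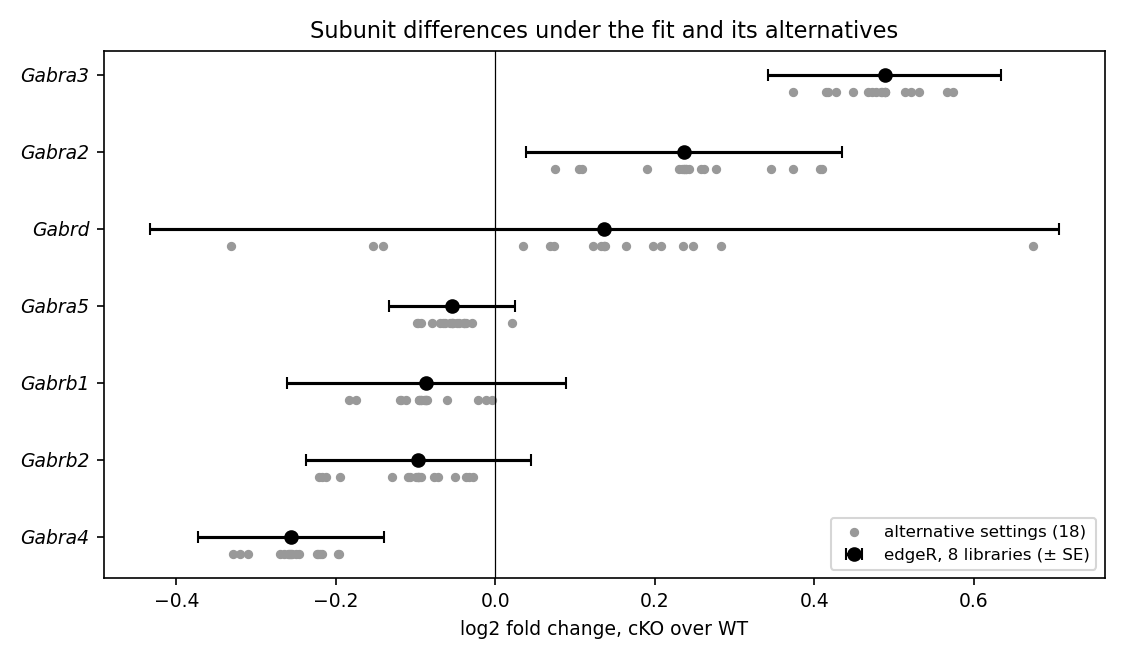
Log2 fold change of cKO over WT for each subunit gene, with black points and bars for edgeR over 8 libraries (± SE) and grey points for the 18 alternative settings. Gabra3 stays between 0.37 and 0.57 and Gabra4 between -0.33 and -0.20, while Gabrd runs from -0.33 to 0.67.

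Ratios within a library do not depend on how libraries are scaled to each other. The ratio of Gabra3 to Gabra4 per kilobase, chosen after the values of both had been seen, was 0.335, 0.435 and 0.371 in WT. It was 0.560, 0.681, 0.536, 0.637 and 0.779 in cKO. Every cKO library lay above every WT library, and with 1 library left out the difference of the mean log2 ratio ran from 0.66 to 0.84. As the pair was picked for its difference, no test is given. The share of Gabra3 among the 4 alpha genes averaged 2.29 ± 0.192% over the 3 WT and 3.28 ± 0.417% over the 5 cKO libraries (SD), and that of Gabra4 averaged 6.07 ± 0.693% and 5.17 ± 0.522%.

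The other ratios overlapped between the groups. Gabra5 exceeded Gabra2 by a factor of 11.5 to 15.9 in WT and of 7.79 to 17.3 in cKO. Gabrb2 exceeded Gabrb1 by a factor of 5.66 to 7.01 in WT and of 5.56 to 7.68 in cKO. Gabrd amounted to 0.0103 to 0.0823 of Gabra4 in WT and to 0.0292 to 0.104 in cKO. Summed over the 7 genes, the level per kilobase averaged 346 ± 12.1 CPM over the WT and 338 ± 17.7 CPM over the cKO libraries (SD) and overlapped too.

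**Figure D4:**
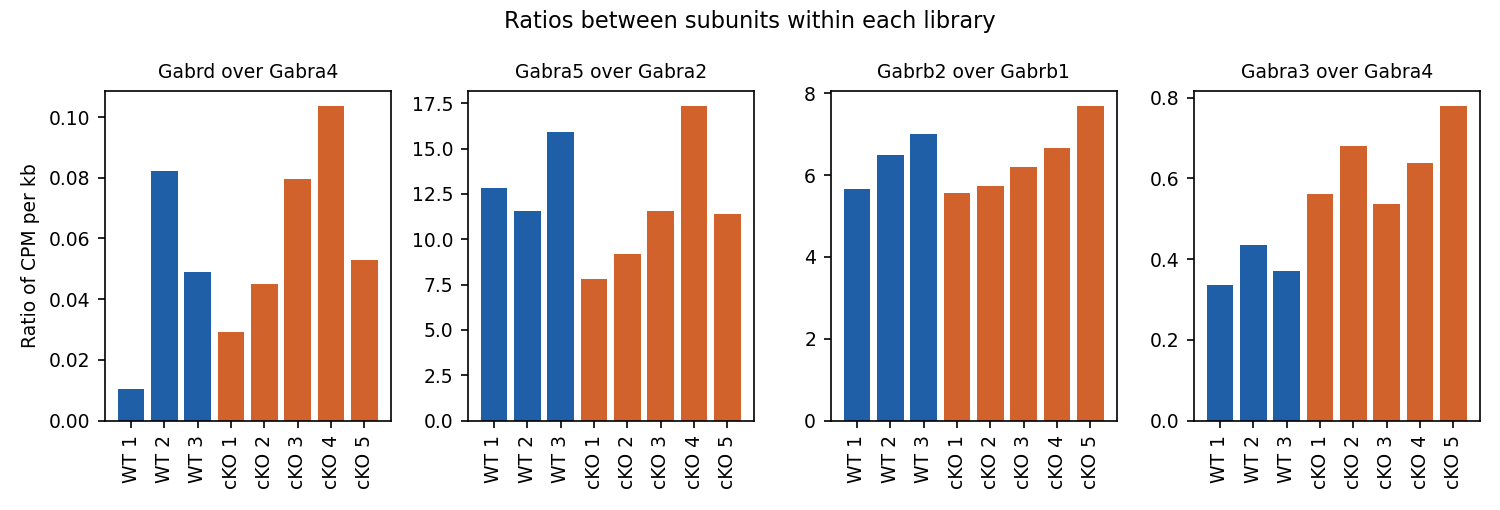
Ratio of per-kilobase levels (vertical axes, from 0) for 4 pairs of subunit genes in each WT (blue) and cKO (orange) library. The ratio of Gabra3 to Gabra4 is 0.335 to 0.435 in WT and 0.536 to 0.779 in cKO, and the other 3 ratios overlap between the groups.

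Dentate granule cells are known for alpha4 and delta, so their markers were set beside both genes. The 10 markers summed to 249, 394 and 628 CPM in WT and to 582, 555, 476, 190.1 and 234 CPM in cKO. By this sum WT 1, cKO 4 and the library labelled cKO 5 were low, and the highest library was 3.30-fold above the lowest. Prox1, Dsp, C1ql2, Stxbp6, Plk5 and Tdo2 were each lower in these 3 libraries than in the other 5. Calb1, Lct, Glis3 and Maml2 were not. Glis3 was highest in cKO 4 (10.9 CPM) and Lct in the library labelled cKO 5 (27.2 CPM). Prox1, a transcription factor expressed in granule cells, ran from 37.9 CPM in cKO 4 to 187 CPM in cKO 2. Gabrd did not order the libraries as these markers did. It was highest in cKO 4, where the marker sum was lowest, and lowest in WT 1, where the sum was also low. Gabra4 in the 3 libraries with a low granule marker sum was 120.5, 101 and 89.1 CPM, against 91.1 to 129 CPM in the other 5. The part of the share of granule cells in the members' levels was not tested.

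**Figure D5:**
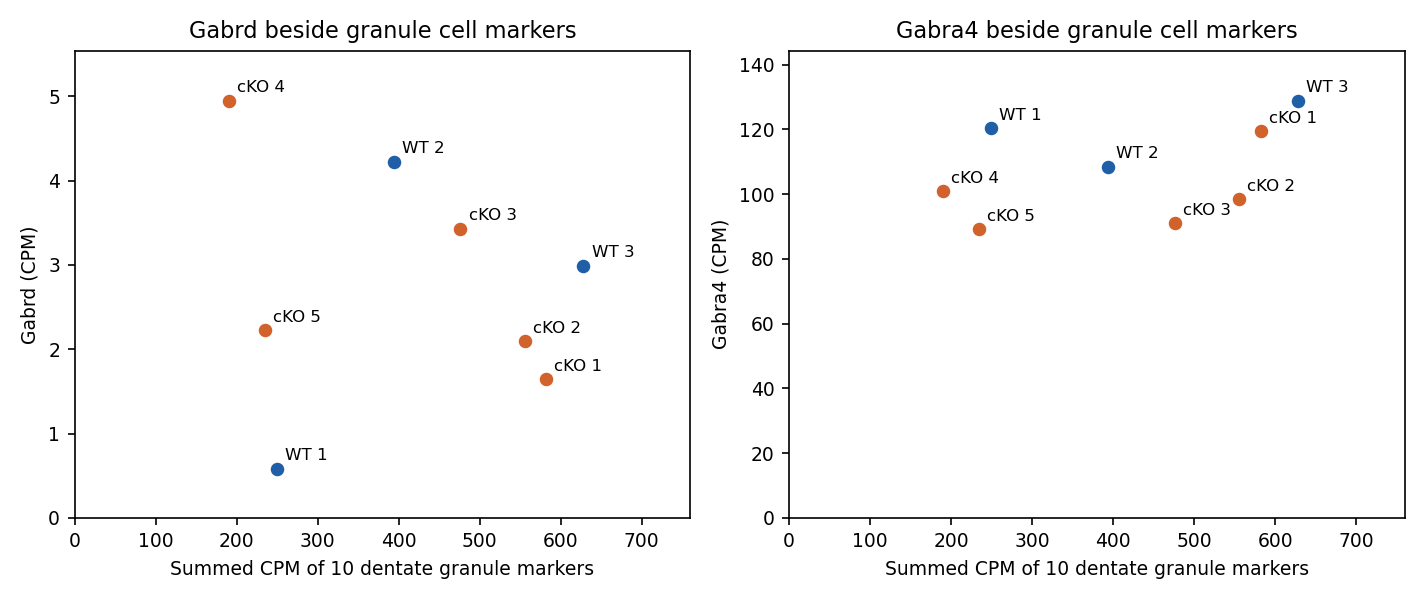
Gabrd (left) and Gabra4 (right) in CPM against the summed CPM of 10 dentate granule markers, 1 point per library, WT in blue and cKO in orange. Library cKO 4 has the lowest marker sum (190.1 CPM) and the highest Gabrd (4.95 CPM).

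Of the remaining subunit genes none was called. Of 12 such genes in the table, 7 were tested, 0 were called by edgeR in either direction and 0 had an unadjusted p under 0.05, with a median log2 fold change of -0.04. Gabrg3, a gamma subunit, was at 66.3, 79.1 and 60.8 CPM in WT and at 75.5, 73.3, 56.3, 128 and 89.6 CPM in cKO, with a log2 fold change of 0.30 (SE 0.22; edgeR, adjusted p = 0.755). As with Gabra5, Gabrb1, Gabrb2 and Gabrd, cKO 4 was its highest library. Gabrg1, a gamma subunit that neighbours Gabra2, was at 2.25 to 3.59 CPM in WT and 1.62 to 2.84 CPM in cKO. Gabra6, the alpha subunit of cerebellar granule cells, had 0 counts in 7 libraries and 1 in the other, and Gabrp had 0 counts in all 8.

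Among 21 tested genes of receptor anchoring, assembly and trafficking, 0 were called by edgeR, while 4 had an unadjusted p under 0.05 and were higher, and 1 was lower (median log2 fold change 0.04), where 5.02% and 3.70% of all genes tested were. Shisa7, an auxiliary protein of GABA-A receptors, was at 238, 228 and 189 CPM in WT and at 275, 247, 247, 309 and 388 CPM in cKO, with the groups apart. The log2 difference was 0.43 (SE 0.15; edgeR, adjusted p = 0.511). Gabarapl2, a relative of the receptor-associated protein GABARAP that also acts in autophagy, was at 152 to 169 CPM in WT and 121 to 143 CPM in cKO. The log2 difference was -0.30 (SE 0.09; edgeR, adjusted p = 0.499). Both were named for having the smallest p of their list, and 7.19% of all genes tested have groups that do not overlap.

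Of the 6 genes of GABA-B receptors and their auxiliary subunits, 0 were called and 0 had an unadjusted p under 0.05 by edgeR (median 0.12). On the log2 scale the auxiliary subunit Kctd16 differed by 0.54 (SE 0.31) and its relative Kctd12b by -0.79 (SE 0.64). Of 7 tested genes of GABA synthesis, packaging, uptake and breakdown, 0 were called and 1 was higher at an unadjusted p under 0.05 (median 0.04). That gene, Slc6a11, encodes the GABA transporter GAT-3, which is mainly astrocytic. It was at 8.99, 9.18 and 6.78 CPM in WT and at 11.6, 17.1, 18.5, 19.2 and 16.4 CPM in cKO, all above WT. By edgeR the log2 fold change of Slc6a11 was 0.99 (SE 0.21; unadjusted p of 0.000713, adjusted p of 0.470). The sums of the 10 astrocyte markers given above, which are mostly Slc1a2, overlapped. Of these markers 1 was higher at an unadjusted p under 0.05, the defining gene Aldh1l1, at 0 to 0.0797 CPM in WT and 0.0543 to 0.713 CPM in cKO. Slc1a2, a glutamate transporter and the most abundant of them, was at 299.9 to 405 CPM in WT and 307 to 478 CPM in cKO. The part of astrocytes in the Slc6a11 difference was not tested.

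Chloride transport sets the direction of the current through these receptors. Of its 7 tested genes, 0 were called and 0 had an unadjusted p under 0.05 by edgeR, with log2 fold changes from -0.15 for the chloride channel gene Clcn2 to 0.15 for the kinase gene Wnk3. The median over the list was -0.002.

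The genes whose log2 CPM was most like that of each member over the 8 libraries were sought among 9671 genes with a mean of at least 5 CPM. Among the 2 most like genes of each, Pearson's r was 0.94 with Cacna1h for Gabra3, 0.97 with Nap1l1 for Gabra4, 0.95 with Ndufb10 for Gabra5, 0.96 with Lipa for Gabra2, 0.97 with Dis3l2 for Gabrb1, 0.96 with Zfp287 for Gabrb2 and 0.97 with Fastkd1 for Gabrd. These are the best of many over 8 points, they share libraries and depth, and no p is given. Ndufb10 was among the 2 most like genes of both Gabra5 and Gabrb2 (r = 0.95 in each case).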

How the data were processed

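The deposited table holds raw counts per Ensembl gene, made by the authors with STAR 2.5.3a and HTSeq on mm10, per the submitters' processing notes; the annotation release, strandedness and filters are not given in the sources used here. Symbols, positions and lengths came from GENCODE vM21 (37693 of 39017 genes matched), and upstream sequences from RefSeq.

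Counts were tested with edgeR 4.0.16 in R 4.3.3: TMM scaling, filterByExpr by group, a robust quasi-likelihood fit and a two-sided test, with Benjamini-Hochberg adjustment over all genes tested; calls needed an adjusted p below 0.05. The script was tested on simulated data. CPM uses TMM-scaled totals. Levels per kilobase divide CPM by the summed length of all exons. DESeq2 1.42.0 and limma 3.58.1 were alternatives.

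Members and lists were chosen with earlier results of these data known. Named genes are all members, Hltf, the remaining subunits, the 2 with the smallest p in each GABA list (mean CPM of at least 1), the 2 most abundant markers of each cell type list, and the 2 genes most like each member; some are not reported here. Gm9962, Cck, C1qa, Mog, Mag, Aldh1l1 and the granule markers other than Prox1 and Calb1 fall outside this rule. They were chosen after their values were seen. Apart from the genes named, markers are described as list sums. Library numbers gave no sign of pairing WT with cKO (r of deviations from -0.0849 to 0.0406). Figures were drawn with matplotlib 3.10.9.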

Additional observations from a re-analysis of the deposited data

Results flagged for a closer look

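In 19 groups of 5 cKO values (CPM and shares of the members, ratios between them, and Hltf), the highest or lowest library was compared with the rest by its gap as a share of the range, against a critical value of 0.710. Chance flags about 1 in 20 such groups, and 4 were flagged.

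Gabra3 in cKO 3 lay at 31.5 CPM, below the other cKO libraries at 41.5 to 44.8 CPM, a gap of 0.756 of the range. Gabra5 in cKO 4 lay at 875 CPM, above the others at 766 to 772 CPM, a gap of 0.949. The share of Gabra4 in the sum of the 7 genes was 5.72% in cKO 1, above the others at 4.51 to 4.83%, a gap of 0.738. In the library labelled cKO 5, Hltf was 11.4 CPM, above the others at 2.83 to 5.10 CPM, a gap of 0.737.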

How the results depend on the processing

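Of 126 values of member log2 fold changes under alternatives, 122 kept their direction and 4 reversed, and none passed the threshold. The reversals were Gabra5 after the GC and length correction (0.021) and Gabrd over 6 libraries (-0.14), without WT 1 (-0.33) and without cKO 4 (-0.15); the cause was not tested. With 1 library left out the log2 fold change ran from 0.41 to 0.57 for Gabra3, from -0.33 to -0.20 for Gabra4, from 0.10 to 0.37 for Gabra2, from -0.09 to -0.03 for Gabra5, from -0.18 to -0.005 for Gabrb1, from -0.21 to -0.03 for Gabrb2 and from -0.33 to 0.67 for Gabrd. The adjusted p of Gabra3 ran from 0.0783 (DESeq2) to 0.951 (edgeR without WT 2). With the replicate block over 6 libraries the log2 fold change was 0.42 for Gabra3, 0.41 for Gabra2 and 0.16 for Gabrd, and the block changed no call of a member. Members called stayed at 0 in each setting.

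Genes called higher and lower over the whole table, 0 and 0 by edgeR, were 2 and 0 without a filter and also when 3 libraries had to reach a CPM of 1, 77 and 48 by DESeq2, 3 and 1 by limma-voom, 5 and 5 over 6 libraries without the block, 1 and 0 with GC and length corrected, and 175 and 89 with the covariate from glial and vessel markers.

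WT shares of the 7 genes moved with the length used, by its construction. With the longest transcript they were 7.19% for Gabra4, 75.9% for Gabra5, 0.724% for Gabrb1 and 7.26% for Gabrb2. With the coding length, chosen after seeing the data because the protein table named in advance was not given, they were 13.1% for Gabra2, 7.65% for Gabra4, 65.5% for Gabra5, 3.14% for Gabrb1 and 8.46% for Gabrb2, and the cKO minus WT difference for Gabrb1 was -0.164 percentage points. Among the alpha genes, Gabra4 came to 7.83% and Gabra5 to 82.7% with the longest transcript, and Gabra2, Gabra4 and Gabra5 to 14.8%, 8.67% and 74.2% with the coding length. Gabrd had the fewest counts of the members, at 22 to 229 per library, and the cause of its spread was not tested.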
